A study of Mus musculus with 24 samples.

Results

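The genes described are the ligands by which neurons and glia restrain or sustain microglia, the resident macrophages of the brain, together with some of the receptors that read them. They were chosen by name, 10 genes of the 55417 in the count table. The ligands were Cx3cl1, Cd200, Cd47, Il34, Csf1, Tgfb1 and Tgfb2, and the receptors were Sirpa, Tgfbr1 and Cd200r1. Of these, 9 passed the filter on low counts and were tested among 16767 genes; Cd200r1 did not pass it.

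Gene expression was measured by RNA sequencing of the dissected entorhinal cortex of adult mice aged 2 to 4 months. All mice, controls included, had the labelled genotype tg/tg from the cross of Nop-tTA Line S with TRE-GlyCl-YFP Line 9531. Nop-tTA uses the neuropsin promoter to drive the transgene in entorhinal neurons, and GlyCl is a chloride channel that silences the neurons carrying it once it is activated. Tissue came from mice 1, 2 and 3 days after activation (6 libraries each, 3 females and 3 males) and from vehicle-treated mice (6 libraries, 4 females and 2 males). The activating agent and the time at which vehicle tissue was taken are not given in the labels. The tissue was bulk, so cells without the channel contributed to every value, and fewer cells of a type cannot be told apart from less RNA per cell.

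Neurons hold microglia in check through surface proteins and secreted factors. Fractalkine (Cx3cl1) sits on neurons and is read by microglial Cx3cr1, CD200 is read by the CD200 receptor, and CD47 is the "don't eat me" signal read by the inhibitory receptor SIRPA. Colony stimulating factor 1 (Csf1) and interleukin 34 (Il34) both bind the receptor Csf1r, on which microglia depend for survival. Transforming growth factor beta (Tgfb1, Tgfb2) binds a receptor built from Tgfbr1 and Tgfbr2 and maintains the homeostatic state of microglia.

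Library totals ranged from 16.6 to 23.7 M reads. The transgene marker EYFP was counted in every library, at 61.9 ± 9.95 CPM (counts per 1000000 library reads; SD, n = 6) at day 3 against 112 ± 19.2 CPM in vehicle (log2 fold change -0.89 ± 0.11 SE, edgeR adjusted p = 1.19e-05). Neuronal markers (10 genes) summed to between 8224 and 8961 CPM in all 24 libraries. The sum was 8500 ± 91.3 CPM at day 3 against 8605 ± 200 CPM in vehicle. Of these 10 genes, 8, 7 and 9 had a log2 fold change below 0 at days 1, 2 and 3. At an unadjusted p under 0.05 (edgeR) there were 4, 3 and 3, where 7.25%, 5.2% and 5.64% of all genes reached that level. No neuronal marker was called, and the part of these genes in the values of the neuronal ligands was not tested. The choroid plexus marker Ttr lay between 562 and 1174 CPM in 8 libraries (2 at day 1, 2 at day 2, 3 at day 3 and 1 in vehicle), and between 8.28 and 25.9 CPM in the rest. Summed over 13 marker genes, microglial transcripts reached 328 ± 27.8 CPM at day 3, from 295 to 369 CPM, against 269 ± 14.5 CPM in vehicle, where the highest library was at 291 CPM. Among these markers, Fcrls and Olfml3 rose at day 3 by 0.70 ± 0.11 and 0.68 ± 0.08 on the log2 scale (SE; edgeR adjusted p = 0.000457 and 5.92e-06). The defining markers P2ry12 and Tmem119 were at log2 fold changes of 0.03 ± 0.06 and 0.06 ± 0.10 (SE) and did not pass (edgeR adjusted p = 0.999 for each). All 13 microglial markers had a log2 fold change above 0 at day 3, with a median of 0.15 beside -0.00 over all genes. Of the 13, 6 had an unadjusted p under 0.05 (edgeR), where 5.64% of all genes did, and 3 were called, where 0.614% were. Markers of border macrophages summed to 12.8 ± 1.89 CPM at day 3 against 11.97 ± 3.83 CPM in vehicle, and those of blood monocytes and neutrophils to 0.72 ± 0.34 CPM at day 3 against 0.62 ± 0.15 CPM in vehicle.

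The members spanned a wide range of levels when counts were divided by exon length (RPKM, the CPM per kilobase of exon, with exon lengths from GENCODE M21). Cx3cl1 was the highest at 215 ± 9.14 RPKM over the 24 libraries (SD), followed by Sirpa at 110 ± 3.43 RPKM. Cd47 at 32.7 ± 1.43, Cd200 at 32.5 ± 2.66 and Il34 at 29.2 ± 1.89 RPKM came next. The lowest to highest values of these 3 overlapped, so their order is not resolved. Tgfbr1 at 4.27 ± 0.51 and Csf1 at 4.06 ± 0.34 RPKM overlapped each other. Tgfb2 at 2.60 ± 0.41 and Tgfb1 at 1.57 ± 0.23 RPKM also overlapped. Tgfb2 overlapped with Tgfbr1 as well, since its highest library (3.23 RPKM) lay above the lowest of Tgfbr1 (3.20 RPKM). Cd200r1 was far below the others, at 0.11 ± 0.04 RPKM. The values of Cx3cl1, Sirpa and Cd200r1 overlapped with those of no other member.

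**Figure D1:**
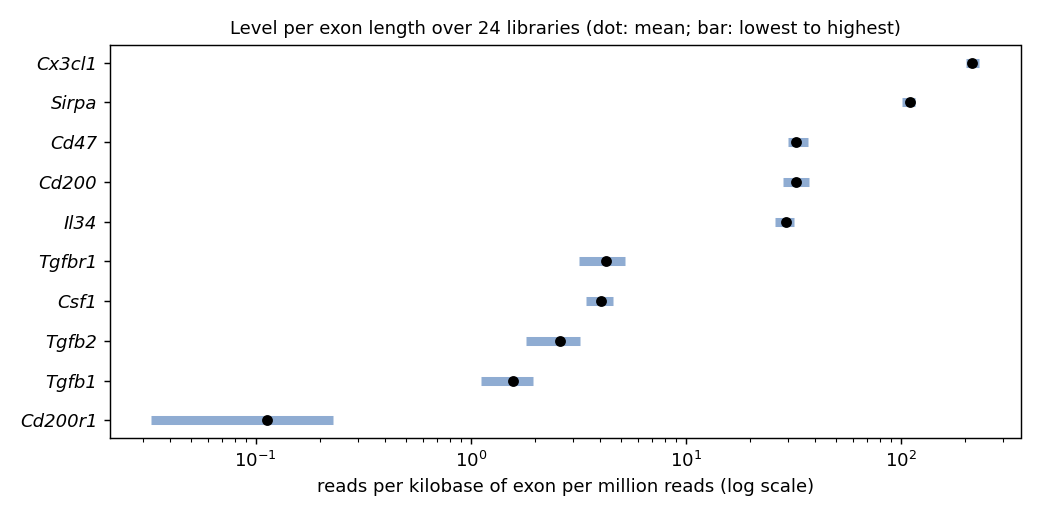
Level of each of the 10 genes in RPKM, on a log axis; dots are means over 24 libraries and bars run from the lowest to the highest library. Cx3cl1 (mean 215) and Sirpa (mean 110) stand above the rest, and Cd200r1 (mean 0.11) lies below all others.

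The RefSeq promoter table (GRCm38.p6; 250 bases before to 50 after the start site) held 7 of the 10 genes. Of these promoters, 4 are shown. Those of Csf1, Tgfb1 and Tgfbr1 belong to the 3 genes with the largest differences at day 3, and that of Cx3cl1 to the most abundant ligand. Capitals mark matches, on either strand, to the GC box with the letters GGGCGG. They also mark matches to the TATA box, spelled TATAAA. The windows lie at chr3:107760420-107760719 on the minus strand (Csf1), chr7:25686752-25687051 on the plus strand (Tgfb1), chr4:47352972-47353271 on the plus strand (the upstream of the start sites listed for Tgfbr1) and chr8:94771930-94772229 on the plus strand (Cx3cl1).
Csf1: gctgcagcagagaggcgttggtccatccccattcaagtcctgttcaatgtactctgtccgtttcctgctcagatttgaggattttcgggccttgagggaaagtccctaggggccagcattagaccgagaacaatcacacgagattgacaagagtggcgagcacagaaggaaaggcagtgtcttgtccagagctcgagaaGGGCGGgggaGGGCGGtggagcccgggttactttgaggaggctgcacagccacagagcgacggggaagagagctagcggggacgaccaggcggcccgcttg
Tgfb1: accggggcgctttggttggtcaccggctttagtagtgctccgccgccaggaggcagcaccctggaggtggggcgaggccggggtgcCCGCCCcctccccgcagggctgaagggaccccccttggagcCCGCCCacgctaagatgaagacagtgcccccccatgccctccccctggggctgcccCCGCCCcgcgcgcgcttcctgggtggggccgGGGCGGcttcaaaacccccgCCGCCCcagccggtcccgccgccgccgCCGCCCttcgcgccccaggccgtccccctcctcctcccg
Tgfbr1: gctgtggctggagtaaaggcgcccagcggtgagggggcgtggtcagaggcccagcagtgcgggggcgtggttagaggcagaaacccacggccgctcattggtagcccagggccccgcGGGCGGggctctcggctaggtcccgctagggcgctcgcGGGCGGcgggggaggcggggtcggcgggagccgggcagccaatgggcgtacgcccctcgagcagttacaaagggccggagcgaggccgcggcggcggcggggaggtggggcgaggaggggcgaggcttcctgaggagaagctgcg
Cx3cl1: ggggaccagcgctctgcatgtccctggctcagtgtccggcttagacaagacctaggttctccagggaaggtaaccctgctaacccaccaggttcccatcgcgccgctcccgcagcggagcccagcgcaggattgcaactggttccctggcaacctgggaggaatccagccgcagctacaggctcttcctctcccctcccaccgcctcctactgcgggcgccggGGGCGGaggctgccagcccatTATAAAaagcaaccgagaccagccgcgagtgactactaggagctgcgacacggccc

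Tgfb1 held 6 GC box matches, Csf1 and Tgfbr1 held 2 each and Cx3cl1 held 1; 35.7% of all 32851 promoters in the table held at least 1. The window of Cx3cl1 also held a TATA box match, as did 13.6% of all promoters. The GC content was 77% for Tgfb1, 74.7% for Tgfbr1, 58.7% for Csf1 and 64.7% for Cx3cl1, against a median of 52.7% over all promoters. None of these 4 windows held TGANTCA (AP-1, in 7.81% of all promoters), TGACGTCA (the cyclic AMP response element, in 1.79%), GAGGAAGT (ETS/PU.1, in 3.2%) or CAGACA (SMAD, in 21%) on either strand. The window at the downstream start listed for Tgfbr1, not printed, differed: it held 1 SMAD match, no GC box and a GC content of 52%. These are matches of letters only.

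**Figure D2:**
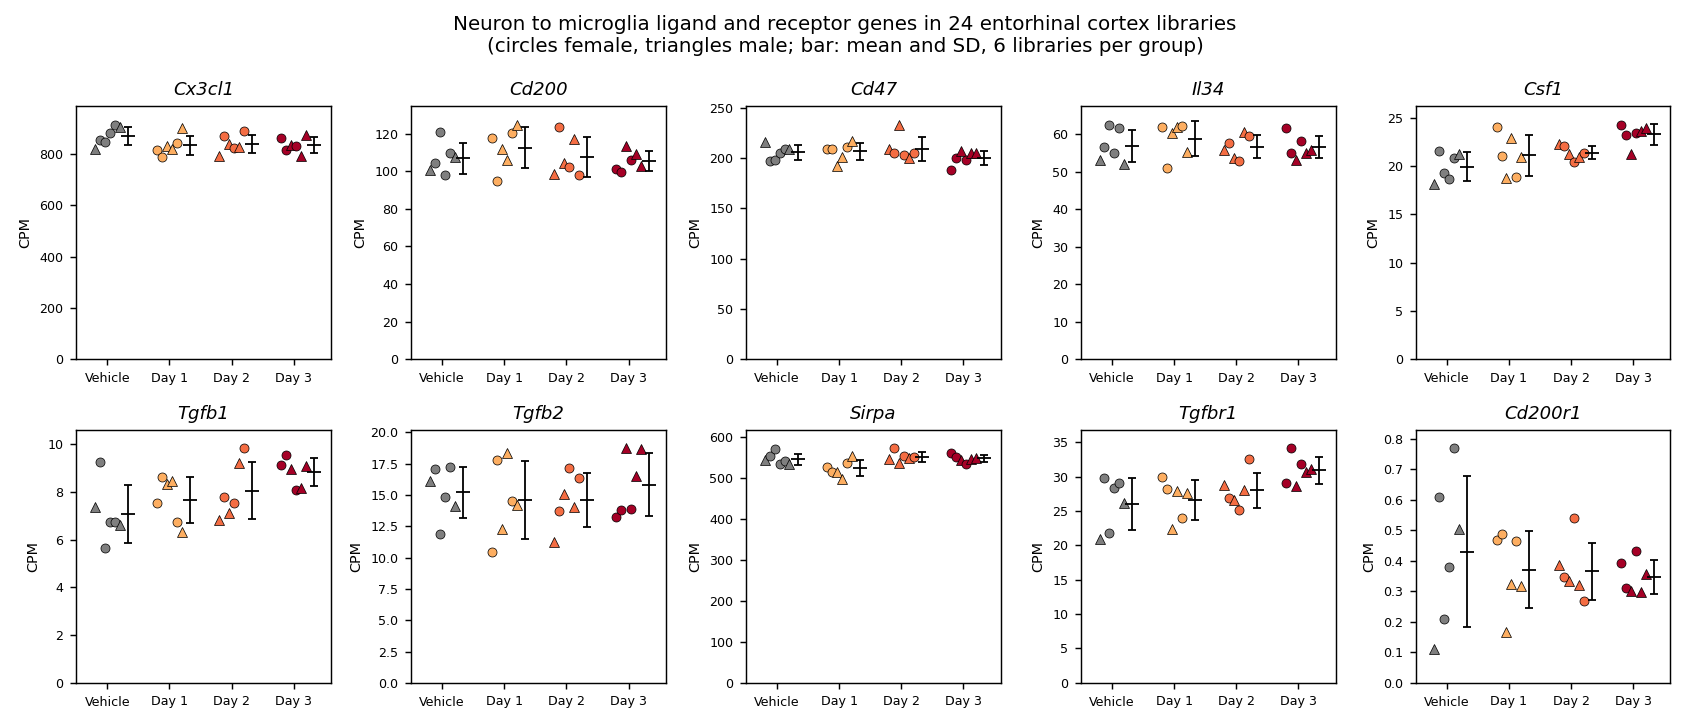
CPM of each gene in every library for vehicle and days 1, 2 and 3, with axes from 0; circles are females, triangles are males, and bars give the mean and SD of 6 libraries. Csf1, Tgfb1 and Tgfbr1 lie somewhat higher at day 3 (means 23.3, 8.81 and 30.9 CPM) than in vehicle (means 19.9, 7.06 and 26.02 CPM), with overlapping values. On these axes the differences of Cx3cl1, Cd47 and Sirpa look small. At day 1, 3 of 6 libraries of Cx3cl1 and 4 of 6 of Sirpa lie below every vehicle library.

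Each day was compared with vehicle to ask whether silencing changed these signals. None of the 9 tested members was called at day 1, day 2 or day 3 (0 by edgeR, DESeq2 and limma voom alike, at an adjusted p under 0.05 over all genes). Among all genes tested, 0.0656% were called at day 1, 0.0656% at day 2 and 0.614% at day 3. At an unadjusted p under 0.05 there were 2 members at day 1 (Cx3cl1 and Sirpa), 0 at day 2 and 3 at day 3 (Csf1, Tgfb1 and Tgfbr1), where 7.25%, 5.2% and 5.64% of all genes reached that level. Of the 9 members, 4 had a log2 fold change above 0 at day 3, and their median was -0.01, beside -0.00 over all genes. For all 10 genes the ranges of libraries overlapped with vehicle on every day; 0.632% of all genes did not overlap at day 1, 0.298% at day 2 and 0.74% at day 3.

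Among the membrane-bound neuronal ligands, fractalkine was measured most precisely. Cx3cl1 had 791, 834 and 873 CPM (lowest, median and highest of 6 libraries) at day 3, against 820, 867 and 912 CPM in vehicle. At day 1 it had 788, 825 and 901 CPM, and at day 2 it had 791, 833 and 888 CPM. The medians of the 3 days lay within a few CPM of each other and below that of vehicle, with overlapping libraries. The log2 fold change was -0.08 ± 0.04 at day 1, -0.06 ± 0.04 at day 2 and -0.07 ± 0.04 at day 3 (SE, n = 6 per group; edgeR adjusted p = 0.675, 0.982 and 0.928). The 95% interval of the day 3 difference ran from -9.95% to 0.23%.

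Cd200, the ligand of the CD200 receptor, had 99.8, 104 and 113 CPM (lowest, median and highest) at day 3, against 98.1, 106 and 121 CPM in vehicle. Its libraries lay within the range of vehicle at day 3, and its log2 fold change was -0.04 ± 0.06 (SE; edgeR adjusted p = 0.999). Cd47 had 188, 202 and 207 CPM at day 3, against 197, 207 and 216 CPM in vehicle. The groups overlapped, with 1 of 6 day 3 libraries below every vehicle library, and the log2 fold change was -0.06 ± 0.04 (edgeR adjusted p = 0.999). The 95% intervals of the day 3 difference ran from -11.2% to 6.42% for Cd200 and from -9.60% to 1.53% for Cd47. At days 1 and 2 the log2 fold changes of both genes lay between -0.02 and 0.05.

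Sirpa, the inhibitory receptor of CD47, is found on microglia and, in the brain, also on neurons. It had 499, 521 and 553 CPM at day 1, against 535, 542 and 570 CPM in vehicle. At day 1, 4 of the 6 libraries lay below every vehicle library, and the log2 fold change was -0.07 ± 0.03 (SE; edgeR adjusted p = 0.557). At day 3 it had 535, 547 and 561 CPM, and the log2 fold change of -0.01 ± 0.03 (edgeR adjusted p = 0.999) had a 95% interval from -4.83% to 3.83%, the narrowest of the members. Sirpa at day 2 differed from day 1 by 0.08 ± 0.03 on the log2 scale and did not pass (edgeR adjusted p = 1). Cd200r1, the inhibitory receptor of CD200 on myeloid cells, was at the limit of detection. It had 5 to 9 reads per library at day 3 (41 in all), against 2 to 18 in vehicle (52 in all). Without the filter on low counts its log2 fold change at day 3 was -0.25 ± 0.43 (SE; edgeR adjusted p = 1), so no difference was detectable at this depth.

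Il34 and Csf1 are the survival ligands of microglia. Il34, the neuronal ligand of Csf1r, had 53.2, 55.4 and 61.5 CPM at day 3, against 52.0, 55.7 and 62.4 CPM in vehicle. The ranges were almost the same, and the log2 fold change was -0.02 ± 0.05 (SE; edgeR adjusted p = 0.999; 95% interval -8.26% to 6.72%). Of its 1959 exon bases, 22 and 75 are shared with the antisense genes Gm15894 and Gm15895, and reads from those bases may come from either strand, since the use of strand in counting is not given. Csf1, the other ligand of that receptor, made largely by glia, had 21.2, 23.5 and 24.3 CPM at day 3, against 18.1, 20.05 and 21.6 CPM in vehicle. At day 1 it had 18.8, 21.02 and 24.01 CPM and at day 2 it had 20.4, 21.3 and 22.2 CPM. Of the day 3 libraries, 5 of 6 lay above every vehicle library. The log2 fold change of Csf1 was 0.06 ± 0.06 at day 1, 0.09 ± 0.06 at day 2 and 0.21 ± 0.06 at day 3 (SE; edgeR adjusted p = 0.895, 0.982 and 0.180). It had the lowest p of the members at day 3 and did not pass (unadjusted p = 0.00186; 95% interval 6.05% to 26.2%).

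Of the transforming growth factor ligands, Tgfb1, which in the brain comes mainly from microglia, had 8.06, 9.02 and 9.52 CPM at day 3, against 5.66, 6.73 and 9.25 CPM in vehicle. In vehicle a single library reached 9.25 CPM and the other 5 were at 7.38 CPM or less, below all day 3 libraries. Its log2 fold change was 0.10 ± 0.11 at day 1, 0.19 ± 0.11 at day 2 and 0.31 ± 0.11 at day 3 (SE; edgeR adjusted p = 0.915, 0.980 and 0.476). Without that vehicle library (vehicle 2) the day 3 value was 0.39 and its edgeR adjusted p 0.0996. Of the 24 fits that leave out 1 library, that fit had the lowest adjusted p. Over the 24 fits the day 3 value ran from 0.25 (without vehicle 3) to 0.39. The edgeR adjusted p reached 0.814 (without vehicle 6), and Tgfb1 passed in none of them. Tgfb2, made by neurons and astrocytes, had 13.3, 15.2 and 18.7 CPM at day 3, against 11.9, 15.5 and 17.2 CPM in vehicle. It varied as much within groups as between them, with a log2 fold change of 0.02 ± 0.12 (edgeR adjusted p = 0.999) and a wide 95% interval from -14.9% to 20.96%. It shares 124 exon bases with the antisense gene Gm29491.

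Tgfbr1, the signalling receptor chain for both ligands, had 28.7, 30.9 and 34.1 CPM at day 3, against 20.9, 27.3 and 29.8 CPM in vehicle. Of the day 3 libraries, 4 of 6 lay above every vehicle library. The log2 fold change was 0.03 ± 0.08 at day 1, 0.11 ± 0.08 at day 2 and 0.25 ± 0.08 at day 3 (SE; edgeR adjusted p = 0.970, 0.987 and 0.302). Without the filter on low counts the day 3 value had an edgeR adjusted p of 0.0426, the only setting of 13 in which a member passed at any day. Microglial markers were also higher at day 3 (the sums given above), and their part in the values of Csf1, Tgfb1 and Tgfbr1 was not tested.

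**Figure D3:**
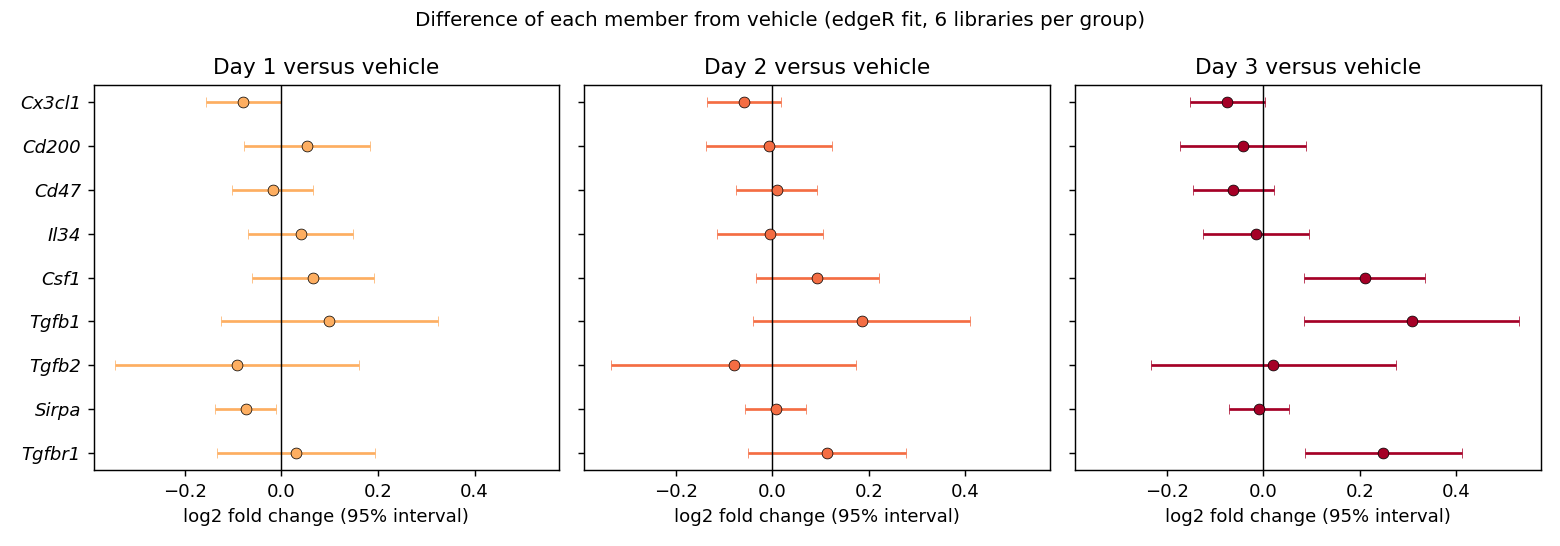
Log2 fold change of the 9 tested genes from vehicle at days 1, 2 and 3, with 95% intervals of the edgeR fit. At day 3 the intervals of Csf1, Tgfb1 and Tgfbr1 lie above 0 (0.21, 0.31 and 0.25) before adjustment over all genes. Those of Cx3cl1 (-0.15 to 0.003), Cd200, Cd47, Il34, Tgfb2 and Sirpa span 0. At day 1 the intervals of Cx3cl1 and Sirpa lie below 0 (-0.08 and -0.07), also before adjustment.

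The days were also compared with each other. No member was called for day 2 against day 1, day 3 against day 2, day 3 against day 1, or in the joint test of the 3 days (0 by edgeR, DESeq2 and limma voom in each), where 0.0119%, 0.131%, 0.65% and 0.644% of all genes were called. At an unadjusted p under 0.05, these were 1, 0, 3 and 3 members, where 4.25%, 4.94%, 8.39% and 7.07% of all genes reached that level. The ranges of all 10 genes overlapped between days; those of 0.155%, 0.328% and 0.829% of all genes did not for day 2 against day 1, day 3 against day 2 and day 3 against day 1. Against day 1, Tgfbr1 at day 3 differed by 0.22 ± 0.08 and Csf1 by 0.15 ± 0.06 on the log2 scale (SE; edgeR adjusted p = 0.324 and 0.454). These comparisons share their day 3 libraries with those against vehicle.

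The direct receptors of the ligands were looked at next. Of 15 further receptors and second ligands, 9 were tested, 1 rose at day 3 and 0 fell, where 0.614% of all genes were called. At an unadjusted p under 0.05 (edgeR) there were 4 of the 9 at day 3, where 5.64% of all genes reached that level. The median log2 fold change of the 9 was 0.12, beside -0.00 over all genes. Sdc1, also on this list, had 1.79 ± 0.37 CPM at day 3 against 1.01 ± 0.28 CPM in vehicle (SD, n = 6). It was not called. Its day 3 libraries all lay above every vehicle library by a narrow gap, from 1.324 CPM against at most 1.321 CPM. Between day 3 and vehicle, 0.74% of all genes did not overlap. Cx3cr1, the microglial receptor of fractalkine, had 52.9, 64.7 and 71.8 CPM at day 3, against 50.4, 52.2 and 59.7 CPM in vehicle. Of the day 3 libraries, 5 of 6 lay above every vehicle library, and Cx3cr1 rose by 0.26 ± 0.06 on the log2 scale (SE; edgeR adjusted p = 0.0412). The call was close to the threshold. It held in 5 of 13 alternatives and in 11 of 24 fits that leave out 1 library, in all of which the difference stayed above 0 (0.22 to 0.32). It ended without vehicle 3, 4, 5 or 6, day 1 libraries 1, 3 or 6, day 2 library 2, or day 3 libraries 1, 2, 3, 5 or 6 (edgeR adjusted p up to 0.223), and it also ended without the 8 libraries rich in Ttr (log2 fold change 0.22, edgeR adjusted p = 0.761). With the first digits of the animal number, which are shared across groups, as a factor, the edgeR adjusted p was 0.0979 at a log2 fold change of 0.26. Limma voom gave an adjusted p of 0.0637. The summed microglial markers moved the same way at day 3, and their part in the rise of Cx3cr1 was not tested.

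Csf1r, the receptor of Csf1 and Il34, had 89.2, 100 and 113 CPM at day 3, against 81.9, 87.6 and 99.4 CPM in vehicle, a log2 fold change of 0.18 ± 0.05 (SE; edgeR adjusted p = 0.195). Tgfbr2 had 21.7, 24.3 and 29.4 CPM at day 3, against 18.4, 23.004 and 26.6 CPM in vehicle, a log2 fold change of 0.12 ± 0.11 (edgeR adjusted p = 0.999). Neither passed, and both overlapped with vehicle. Divided by exon length, Cx3cr1 stood at 0.067 ± 0.0066 of the level of Cx3cl1 at day 3, against 0.054 ± 0.0045 in vehicle (SD, n = 6). Csf1r stood at 3.94 ± 0.19 times the level of Csf1 at day 3, against 4.08 ± 0.32 times in vehicle, and at 0.60 ± 0.03 times that of Il34, against 0.53 ± 0.05 times in vehicle. The ratio of Sirpa to Cd47 was 3.50 ± 0.17 at day 3, against 3.40 ± 0.19 in vehicle. For each of these ratios the day 3 libraries overlapped with vehicle, and differences in the ratios were not tested. Fractalkine transcripts thus outnumbered those of their receptor per length in every group, whereas Csf1r outnumbered Csf1. The Cd200r and Sirpb relatives Cd200r2, Cd200r3, Cd200r4, Sirpb1a, Sirpb1b and Sirpb1c had at most 5 reads in any library and were not tested.

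**Figure D4:**
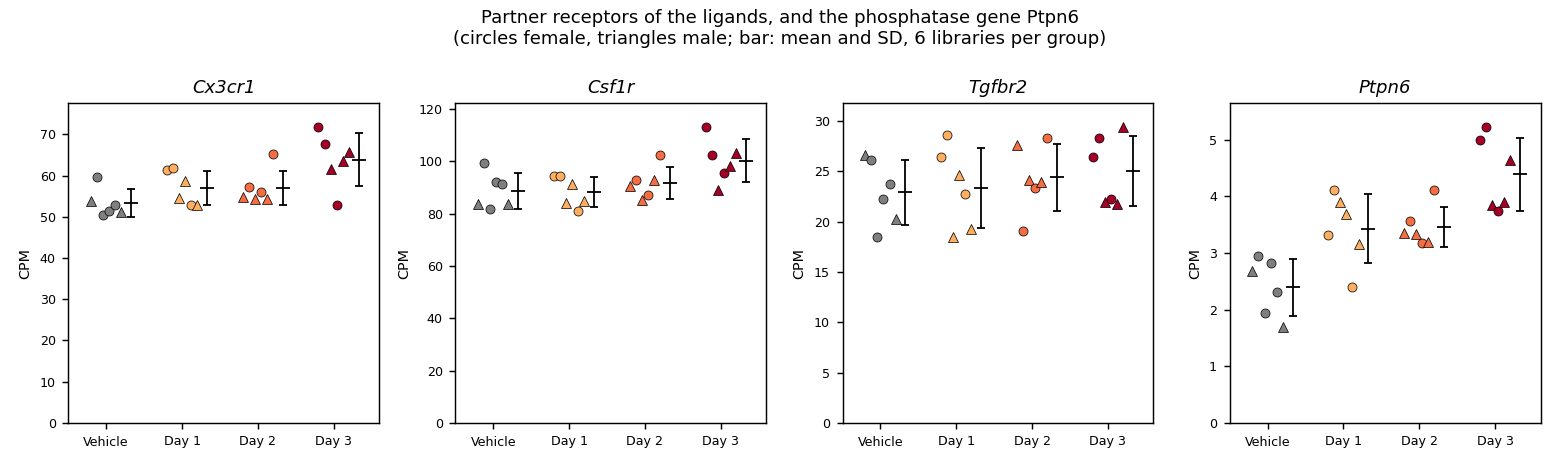
CPM of Cx3cr1, Csf1r, Tgfbr2 and Ptpn6 in every library for vehicle and days 1, 2 and 3, with axes from 0; circles are females, triangles are males, and bars give the mean and SD of 6 libraries. All day 3 libraries of Ptpn6 (3.74 to 5.23 CPM) lie above all vehicle libraries (1.69 to 2.95 CPM), and 5 of 6 do for Cx3cr1.

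Inside the microglial cell, SIRPA passes its signal through the phosphatases SHP-1 (Ptpn6) and SHP-2 (Ptpn11), and the CD200 receptor through Dok1, Dok2 and Rasa1. Of 6 such transducers, 1 rose at day 3 and 0 fell, where 0.614% of all genes were called. Ptpn6 had 3.74, 4.27 and 5.23 CPM at day 3, against 1.69, 2.49 and 2.95 CPM in vehicle. The groups did not overlap, as was so for 0.74% of all genes. Ptpn6 rose by 0.87 ± 0.15 on the log2 scale, which is 1.83-fold (SE; edgeR adjusted p = 0.000884). At days 1 and 2 its log2 fold changes were 0.51 ± 0.15 and 0.53 ± 0.15 and did not pass (edgeR adjusted p = 0.272 and 0.464). The day 3 call held in 10 of 13 alternatives and in all 24 fits that leave out 1 library. It ended without the 8 libraries rich in Ttr (log2 fold change 0.78, edgeR adjusted p = 0.136). In females alone and in males alone it also ended (edgeR adjusted p = 0.124 and 0.385), with a log2 fold change of 0.89 in each. The part of the microglial markers, which were higher at day 3, in the rise of Ptpn6 was not tested. Ptpn11, which is expressed broadly, was at -0.02 ± 0.04 (edgeR adjusted p = 0.999).

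In the 5 remaining lists of this system 0 genes were called on any day by edgeR, DESeq2 or limma voom; at day 3, 1 of the 4 proteases, 1 of the 12 activation genes, 1 of the 15 signalling genes, 1 of the 5 TAM genes and 2 of the 7 inhibitory receptors had an unadjusted p under 0.05, a level that 5.64% of all genes reached. At day 1 these were 2 activation genes and 2 TAM genes, where 7.25% of all genes reached it, and at day 2 they were 1 activation gene and 2 signalling genes, where 5.2% did. Of 4 proteases that shed or process these ligands, Ctss, a lysosomal protease of microglia, and Bace1 were at 0.19 ± 0.07 and -0.05 ± 0.04 at day 3 (log2 fold change ± SE; edgeR adjusted p = 0.478 and 0.999). Of 12 genes that store or activate transforming growth factor beta, the integrin chain Itgb3 was at 0.35 ± 0.13 (5.01 ± 0.45 CPM at day 3 against 3.83 ± 0.36 CPM in vehicle, SD, n = 6; edgeR adjusted p = 0.485) and Itgav at -0.07 ± 0.05. All 6 day 3 libraries of Itgb3 lay above every vehicle library, from 4.50 CPM against at most 4.33 CPM. Between day 3 and vehicle, 0.74% of all genes did not overlap. Of 15 tested genes of the signalling pathway and its feedback, the corepressor Tgif1 was at 0.75 ± 0.20 (1.69 ± 0.34 CPM at day 3 against 0.996 ± 0.19 CPM in vehicle; edgeR adjusted p = 0.114) and the inhibitory Smad6 at 0.27 ± 0.18. The libraries of Tgif1 did not overlap either, from 1.33 CPM at day 3 against at most 1.24 CPM in vehicle. Tgif1 had 33.0 reads per library on average at day 3 against 19.3 in vehicle.

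Of the 5 TAM receptors and ligands, through which microglia take up dying cells, the bridging ligand Pros1 was at 0.22 ± 0.10 and the receptor Axl at 0.09 ± 0.07 at day 3 (log2 fold change ± SE; edgeR adjusted p = 0.811 and 0.999). At day 1 the receptors Mertk and Tyro3 were at -0.29 ± 0.09 and -0.14 ± 0.04 (unadjusted p = 0.00352 and 0.00278; edgeR adjusted p = 0.337 and 0.299), with 3 and 5 of 6 day 1 libraries below every vehicle library. Neither passed, and at day 3 they were at -0.08 ± 0.09 and -0.05 ± 0.04. Of 7 tested inhibitory receptors of myeloid cells other than SIRPA, all had a log2 fold change above 0 at day 3, with a median of 0.21 beside -0.00 over all genes. Summed microglial markers were at 328 ± 27.8 CPM at day 3 against 269 ± 14.5 CPM in vehicle (SD, n = 6), and their part in these values was not tested. Cd300lf, a lipid receptor, was at 1.04 ± 0.28 (1.11 ± 0.30 CPM at day 3 against 0.527 ± 0.19 CPM in vehicle; edgeR adjusted p = 0.107) and Lair1, a collagen receptor, at 0.25 ± 0.12 (edgeR adjusted p = 0.848).

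Since no member was called, the gene with the lowest joint p, Csf1, was used to look for the most similar pattern. After group and sex were fitted, the genes whose log2 CPM followed Csf1 most closely over 24 libraries, of 13358 ranked, were Lap3 (Pearson's r = 0.801, Spearman's rho = 0.847), Wnt10a (r = 0.720, rho = 0.709) and Sptlc1 (r = 0.703, rho = 0.670). Permutation p-values were 1e-05, 1e-04 and 2e-04 for r and 1e-05, 2e-04 and 5e-04 for rho; since these are the highest of many genes, they describe the ranking only, and 1e-05 is the smallest that the permutations can give. Without the 2 libraries farthest from the median of Csf1, r was 0.778, 0.663 and 0.585.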

How the data were processed

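RNA was sequenced from 24 libraries in 4 groups of 6. The values deposited by the authors are raw gene counts. Per the submitters' processing notes, the tools fastp 0.23.1, STAR 2.7.9a and DESeq2 1.32.0 and the build mm39 were named; the sources used here do not give their roles, the counter, the annotation or whether strand was used. Il34 and Tgfb2 share exon bases with antisense genes in GENCODE M21, so their reads may include those genes. Groups came from the treatment label; replicate numbers follow accession order and pair nothing. Each library carries its own animal number in the labels.

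The quasi-likelihood test of edgeR 4.0.16 (two-sided, R 4.3.3) was applied to these counts, with TMM factors, filterByExpr (minimum count 10, minimum total 15), group and sex over all 24 libraries, and Benjamini-Hochberg adjustment over 16767 genes; a gene was called at an adjusted p under 0.05. Fold changes carry the SE of the fit. CPM use the library total, and RPKM also the length of the union of exons. Alternatives were other factors and filters, DESeq2 1.42.0, limma 3.58.1 voom, other covariates, subsets and leaving out each library. The steps were tested on simulated data. Members and lists were chosen with earlier results of these data known. Named genes were the members, Cx3cr1, Csf1r and Tgfbr2, and called genes of each list or else the 2 with the lowest p at day 3. The 3 genes most like Csf1 were also named. Sdc1, Ptpn11, Mertk, Tyro3, the relatives at few reads and the marker genes given were added after their values were seen. Markers of microglia, border macrophages, blood leukocytes and neurons were summed per library. The value of 1 marker gene is not reported here.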

Additional observations from a re-analysis of the deposited data

Results flagged for a closer look

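In 4 of 56 groups of 6 libraries examined (14 genes in 4 groups), the gap between the most extreme library and its nearest neighbour, as a share of the whole range, was above the 95% critical value of Dixon's test for 6 values; chance flags about 1 in 20 groups. Csf1 in day 3 library 3 was at 21.2 CPM, below the next at 23.2 CPM (gap 0.664 of the range). Cd47 in day 2 library 3 was at 233 CPM, above the next at 209 CPM (0.717). Cx3cr1 was at 65.2 CPM in day 2 library 6, above the next at 57.2 CPM (0.726), and at 59.7 CPM in vehicle library 2, above the next at 53.9 CPM (0.628).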

How the results depend on the processing

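The count of members called stayed at 0 in 89 of 90 combinations of comparison and alternative, and in all 168 combinations of comparison and left-out library (lowest 0, highest 0). The exception was day 3 against vehicle without a filter on low counts, with 1 member called, Tgfbr1; that setting also called 217 genes in all, against 103. The joint test was not run with only the groups compared. Over all genes, the count at day 3 was 126 with DESeq2 and 93 with limma voom, and fell to 49 without the 8 libraries rich in Ttr, 35 in females and 12 in males; at day 1 it was 159 without the filter, 69 with DESeq2 and 31 with the first digits of the animal number as a factor, against 11, and at day 2 it was 86 without the filter and 18 with DESeq2, against 11. The day 3 log2 fold change stayed at 0.20 to 0.25 for Csf1, 0.23 to 0.33 for Tgfb1 and 0.21 to 0.34 for Tgfbr1 over 13 alternatives, and at -0.09 to -0.06 for Cx3cl1. Of the single-gene values, 29 of those under alternatives and 23 of those without 1 library changed sign, all of them values that were not called. Cd200r1, at 2 to 18 reads per library, is limited by depth. No paired analysis was possible because the labels give the groups no shared replicate numbers; the first digits of the animal number, which recur across groups, were fitted as a factor instead.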

Other observations

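Several inhibitory receptors of myeloid cells had too few reads to be tested. Lilrb4a, an inhibitory immunoglobulin-like receptor, had 33 reads over the 6 day 3 libraries, against 5 over the 6 vehicle libraries. Per library these were 2 to 13 reads at day 3 (median 4.5), against 0 to 2 in vehicle (median 1). Cd22, a sialic acid binding receptor, had 20 reads at day 3, against 8 in vehicle. Clec12a, a C-type lectin, had 33 reads at day 3, against 40 in vehicle, and Pilra had 36 at day 3, against 23 in vehicle.

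Tgfb2 was the member whose day 3 value differed most between the sexes. Its log2 fold change from vehicle was 0.22 in males and -0.17 in females; the difference, 0.39, did not pass (edgeR interaction, unadjusted p = 0.110, adjusted p = 1), and vehicle held 2 males.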
